A study of Homo sapiens with 3 samples.

Results

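The 9 genes described here encode receptors and signalling proteins of the interferon and innate immune pathways. They are IFNAR1, IFNAR2, IFNGR1, IFNGR2, IRF7, ISG15, IFIH1, NFKB1 and RELA, taken from 20037 protein-coding genes of the RefSeq table of GRCh38.p14. For each gene, every SOX4 summit inside it or within 50 kb of its ends was collected, which gave 10 of the 7511 summits in all. The genes were selected on the positions of these same summits, with IRF7, ISG15 and IFIH1 also named in the series design, so their counts are a description, given without a test. The transcription factor SOX4, which binds DNA through a high-mobility-group domain, was mapped by chromatin immunoprecipitation and sequencing (ChIP-seq). The cells were BT549, a human cell line from a triple-negative breast cancer, labelled as passage 5. The 3 libraries, replicates 1, 2 and 3, form 1 group with the same cells and the same Abcam SOX4 antibody (ab86809). Their titles all carry the code UT, which the labels do not spell out. No second condition, input or IgG library was analysed here, and nothing says whether the libraries came from separate cultures. The authors called summits per library, with 1368, 1713 and 4430 for replicates 1, 2 and 3, and gave each a score on the −log10 scale of MACS2, from either a p or a q value. Read depth is unknown. Expression was not measured in these files, so neither the cell type nor the activity of these genes could be checked against markers.

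Type I interferons bind a receptor built from IFNAR1 and IFNAR2, and interferon gamma binds 1 built from IFNGR1 and IFNGR2. Both receptors signal through Janus kinases and STAT transcription factors to switch on interferon-stimulated genes. IFIH1 encodes MDA5, a cytosolic sensor of double-stranded RNA, IRF7 is a transcription factor that drives type I interferon genes, and ISG15 is a ubiquitin-like protein induced by interferon. NFKB1 and RELA encode subunits of NF-kappaB, a transcription factor that acts with interferon regulatory factors at innate immune genes.

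SOX4 summits lay within 1 kb of an end of 4 of the 9 genes: IFNAR1, IFNAR2, NFKB1 and RELA. IRF7 and ISG15 had summits farther away, inside neighbouring genes, and IFNGR1, IFNGR2 and IFIH1 had none within 50 kb. In all, 6 of the 9 genes had a summit of any library inside or within 50 kb, where 35.0% of all coding genes did. Within 1 kb of either end, 15.1% of all coding genes had a summit. A region of at least 2 libraries, meaning a chain of summits from different libraries no more than 200 bp from one to the next, lay inside or within 50 kb of 2 genes, IFNAR1 and IRF7 (6.52% of all coding genes), and within 1 kb of an end of 1 gene, IFNAR1 (2.51%). The IFNAR1 region rests on replicates 1 and 3 and is lost as such without either of them. Because summit positions chose the genes, these shares set the scale only. Of the 3 members with no summit in their windows, IFNGR2 was the closest to the limit, with its nearest summit at 78.4 kb. ISG15, at 46.7 kb, was the closest to it from within.

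The libraries contributed unequally. Replicate 3 held 5 of the 10 summits and placed one within 1 kb of an end of 4 of the 9 genes (13.3% of all coding genes). Replicate 1 held 3 summits and reached 2 of the 9 genes at this distance, IFNAR1 and NFKB1 (3.07%). Replicate 2 held 2 summits, those of the IRF7 and ISG15 windows, and reached 0 of the 9 (2.76%). Without replicate 3, 4 of the 9 genes had a summit inside or within 50 kb, where 13.6% of all coding genes did, and 2 had one within 1 kb of an end, where 4.77% did. Of the 10 summits, 5 had a summit of another library within 200 bp (50.0%), against 30.4% of the 7511 summits. These 5 form only 2 regions, the pair at IFNAR1 and the 3 summits in the IRF7 window, so they are not independent of each other. Without replicate 1 the share was 28.6%, against 18.2% of all summits.

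**Figure D1:**
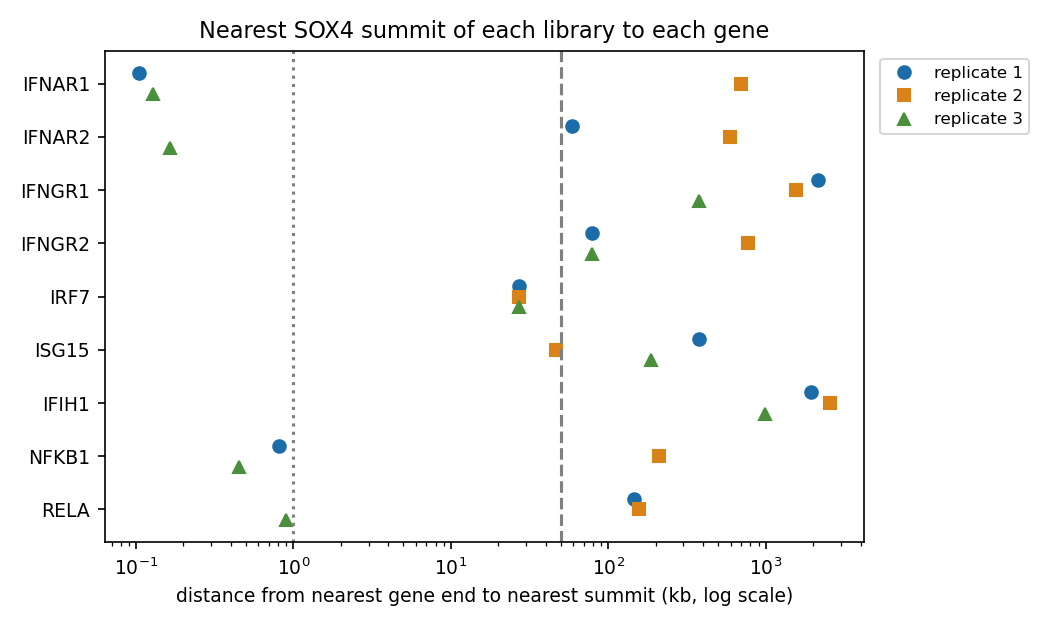
Distance in kb (log scale) from the nearest end of each of the 9 genes to the nearest summit of each library, with a dotted line at 1 kb and a dashed line at 50 kb. IFNAR1, IFNAR2, NFKB1 and RELA have a summit left of the dotted line in replicate 1 or 3, IRF7 has the summits of the 3 libraries together near 27.1 kb, and no replicate 2 summit lies left of the dotted line.

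Among the receptor chains, IFNAR1 carried the site seen in more than 1 library. The gene spans chromosome 21, 33324395 to 33359864, on the plus strand. Replicate 1 had a summit at 33324500, which is 105 bp downstream of the listed start at 33324395, with a score of 3.60. Replicate 3 had a summit at 33324523, which is 128 bp downstream of that start, with a score of 4.87. The summits stood 23 bp apart. Both scores were below the median of their lists: 6.21% of the summits of replicate 1 and 35.7% of those of replicate 3 scored lower. Of the 639 regions found in exactly 2 libraries, 62 had a lower value for their weaker summit, and the median was 39.5%. The nearest summit of replicate 2 was 692 kb away.

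RefSeq's promoter table lists a second IFNAR1 start at 33324970, so the summits lie between the 2 starts, 470 and 447 bp upstream of the second. The 300 bp windows in that table (250 bp before to 50 bp after a start) do not reach the summits: the first ends 56 bp before that of replicate 1 and 79 bp before that of replicate 3. That first window, chr21:33324145-33324444 on the plus strand of GRCh38.p14, is shown because it is the listed promoter nearest to the shared summits. Capitals mark its 1 match to the SOX core AACAAT, here on the minus strand, starting at position -151 from the start.

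IFNAR1: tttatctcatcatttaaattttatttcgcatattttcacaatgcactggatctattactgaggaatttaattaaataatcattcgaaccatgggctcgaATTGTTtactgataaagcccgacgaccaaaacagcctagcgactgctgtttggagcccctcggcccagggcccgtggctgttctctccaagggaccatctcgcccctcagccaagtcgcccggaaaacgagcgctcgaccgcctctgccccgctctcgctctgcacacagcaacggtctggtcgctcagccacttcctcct

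IFNAR2 had the highest score of the receptor genes. The gene spans chromosome 21, 33229938 to 33265664, and replicate 3 had a summit at 33230102, inside the gene and 164 bp from its lower end. Its score of 7.84 ranked 712 of 4430, above 83.7% of that list. The summit also lies inside the readthrough gene IFNAR2-IL10RB, which overlaps IFNAR2 in the table, so it cannot be assigned to 1 of these genes alone. No other library had a summit there. The nearest summit of replicate 1 was that of IFNAR1, 58.8 kb away, and the nearest of replicate 2 was 597 kb away.

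IFNGR2 (chromosome 21, 33402882 to 33437516), which lies next to IFNAR1, had no summit inside it or within 50 kb. Its nearest summits of replicates 1 and 3 were the pair at IFNAR1, each 78.4 kb away, and that of replicate 2 was 770 kb away. IFNGR1, the chain of the interferon gamma receptor encoded on chromosome 6 (137197484 to 137219385), was farther from any summit. Replicates 1, 2 and 3 had their nearest summits at 2155, 1554 and 375 kb. The chains of the type I receptor thus had summits at their ends in 1 or 2 libraries, and those of the interferon gamma receptor had none in any library.

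The NF-kappaB genes had summits at their listed starts. NFKB1 spans chromosome 4, 102501359 to 102617302, on the plus strand, with starts at 102501359 and 102501934. Replicate 3 had a summit at 102501812, which is 453 bp downstream of the first start and 122 bp upstream of the second, with a score of 3.17. Replicate 1 had a summit at 102502164, which is 805 bp downstream of the first start and 230 bp downstream of the second, with a score of 3.55. Both also lie within 1 kb of a listed start of the antisense gene NFKB1-AS1. Both were near the bottom of their lists, where 2.03% of the replicate 3 list and 5.41% of the replicate 1 list scored lower. The summits stood 352 bp apart, so they counted as separate sites at 200 bp and joined into a region of 2 libraries at 500 bp. The nearest summit of replicate 2 was 211 kb away.

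RELA spans chromosome 11, 65653601 to 65663857, on the minus strand, with listed starts at 65663857 and 65662916. Replicate 3 had a summit at 65662959, which is 898 bp downstream of the first start and 43 bp upstream of the second. Its score of 5.48 ranked 2317 of 4430, above 47.6% of the list. Replicates 1 and 2 had their nearest summits at 146 and 156 kb. Of the 7 members with a listed start, IFNAR1, NFKB1 and RELA had a summit within 500 bp of it, and 15.2% of the 15843 coding genes with a listed start did.

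The windows of NFKB1 and RELA are shown because they are the 2 of the 11 listed member promoters that hold a summit. Capitals mark the 31 bases centred on the replicate 3 summit, at base 129 of the NFKB1 window (chr4:102501684-102501983, plus strand) and base 208 of the RELA window (chr11:65662867-65663166, minus strand), counted from the 5′ end.

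NFKB1: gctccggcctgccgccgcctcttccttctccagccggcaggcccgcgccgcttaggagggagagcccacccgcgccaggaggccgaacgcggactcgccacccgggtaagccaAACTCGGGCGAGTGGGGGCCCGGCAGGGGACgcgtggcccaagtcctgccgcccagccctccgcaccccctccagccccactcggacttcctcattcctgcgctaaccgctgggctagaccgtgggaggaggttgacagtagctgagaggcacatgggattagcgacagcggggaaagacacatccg

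RELA: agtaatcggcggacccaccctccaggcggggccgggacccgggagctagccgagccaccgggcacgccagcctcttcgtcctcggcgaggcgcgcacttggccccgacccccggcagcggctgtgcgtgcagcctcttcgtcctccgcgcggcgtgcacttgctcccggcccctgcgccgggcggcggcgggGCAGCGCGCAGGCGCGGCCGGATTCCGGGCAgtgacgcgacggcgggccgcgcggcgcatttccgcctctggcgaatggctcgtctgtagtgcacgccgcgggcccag

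Both windows were rich in G and C, with 70.0% GC and an observed over expected CpG ratio of 0.765 for NFKB1 and 77.0% and 1.08 for RELA. Neither held a match to the SOX core AACAAT or to AACAAAG on either strand. The coding promoters with a summit within 500 bp of their start had a median GC content of 66.3% and a median CpG ratio of 0.884, against 61.3% and 0.690 in those without one. The IFNGR2 window, with 80.0% GC, a CpG ratio of 0.926 and no summit within 50 kb, shows that a high value did not come with a summit in every member.

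The summits at NFKB1 and RELA also had starts on both strands nearby. The RELA summit lay 43 bp from the RELA start and 47 bp from that of RELA-DT, a divergent transcript listed on the opposite strand. The NFKB1 summits had a start of the antisense gene NFKB1-AS1 at 674 bp in replicate 3 and 322 bp in replicate 1. The IFNAR1 summits had no listed start of the opposite strand nearer than 58.2 kb. Among all 2736 summits within 500 bp of a listed coding start, 35.7% had listed starts of both strands within 1 kb.

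**Figure D2:**
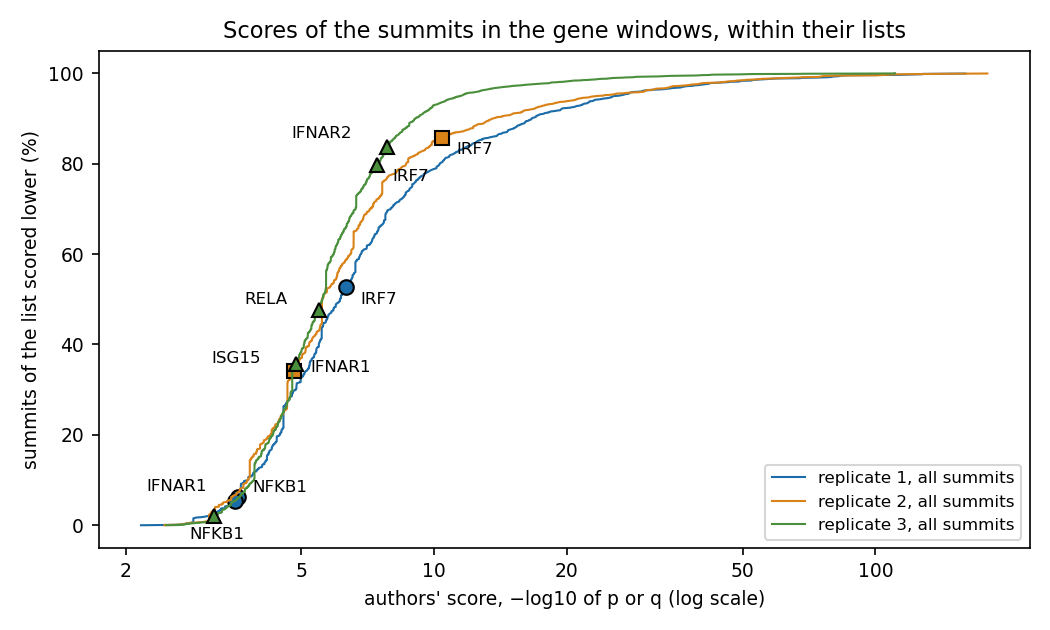
Authors' score (log scale) against the share of summits in the same list that scored lower, as 1 line for each library, with the 10 summits of the gene windows as filled symbols labelled by gene. The NFKB1 summits and the replicate 1 summit of IFNAR1 sit at the bottom of their lists, between 2.03% and 6.21%, and those of IFNAR2 and of the IRF7 window in replicates 2 and 3 sit between 79.8% and 85.8%.

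The genes IRF7, ISG15 and IFIH1 had no summit inside them or within 1 kb of an end. IRF7 spans chromosome 11, 612555 to 615950, and its window held the best replicated site of all 9 genes. Replicate 1 had a summit at 585415 with a score of 6.32, replicate 2 at 585469 with 10.4 and replicate 3 at 585438 with 7.44. The 3 summits lay within 54 bp of each other and 27.1 kb from IRF7. They stood inside PHRF1, the neighbouring gene that encodes a PHD and RING finger protein, 8945 to 8999 bp downstream of the PHRF1 start. In their lists, 52.6%, 85.8% and 79.8% of the summits of replicates 1, 2 and 3 scored lower. Of the 331 regions found in 3 libraries, 147 had a lower value for their weakest summit, and the median was 62.8%, above the 52.6% of this region.

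ISG15 spans chromosome 1, 1013497 to 1014540. Replicate 2 had a summit at 966829, which is 46.7 kb from the gene, inside PLEKHN1 and 347 bp downstream of the PLEKHN1 start. Its score of 4.82 stood above 34.2% of the list. Replicates 1 and 3 had their nearest summits at 379 and 186 kb. IFIH1 spans chromosome 2, 162267074 to 162318684, and had the most distant summits of the 9 genes in replicates 2 and 3. Replicates 1, 2 and 3 had theirs at 1943, 2555 and 986 kb.

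The listed promoters of ISG15 and IFIH1 are shown because the series design places SOX4 sites in the regulatory regions of these genes. They are chr1:1013247-1013546 on the plus strand and chr2:162318635-162318934 on the minus strand of GRCh38.p14. Capitals mark matches to the core of the interferon-stimulated response element, GAAANNGAA, and to the SOX core AACAAT, on either strand.

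ISG15: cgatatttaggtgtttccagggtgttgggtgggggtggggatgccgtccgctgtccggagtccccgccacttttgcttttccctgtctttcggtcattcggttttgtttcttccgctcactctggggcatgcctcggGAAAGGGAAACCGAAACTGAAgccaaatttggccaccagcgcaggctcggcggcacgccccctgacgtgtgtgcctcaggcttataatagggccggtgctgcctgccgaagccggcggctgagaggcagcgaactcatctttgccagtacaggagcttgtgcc

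IFIH1: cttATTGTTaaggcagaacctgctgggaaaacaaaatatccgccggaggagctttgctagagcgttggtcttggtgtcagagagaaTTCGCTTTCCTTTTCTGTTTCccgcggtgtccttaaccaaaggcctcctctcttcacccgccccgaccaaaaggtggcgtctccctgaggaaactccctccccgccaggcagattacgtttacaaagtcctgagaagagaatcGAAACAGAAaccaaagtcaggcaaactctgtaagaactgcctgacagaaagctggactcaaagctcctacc

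The ISG15 window held 3 overlapping matches to GAAANNGAA, starting at positions -113, -107 and -101 from the start. The IFIH1 window held 4, starting at -164, -158, -152 and -21, and 1 match to the SOX core, starting at -247. Of the 35116 listed promoter windows, 8.11% held GAAANNGAA, 10.1% held AACAAT and 5.20% held AACAAAG. Among the 11 windows of the members, 3 held GAAANNGAA (IFIH1, ISG15 and the first RELA start), 2 held AACAAT (IFNAR1 and IFIH1) and 0 held AACAAAG. A match is a string of letters in a window and says nothing of binding.

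Set side by side, the chromosome 21 receptor cluster (IFNAR1, IFNAR2 and IFNGR2) and the genes IRF7, ISG15 and IFIH1 held the same number of sites and differed in where these lay. The joined windows of the cluster covered 308 kb with 6 coding genes, and those of the other 3 genes covered 356 kb with 17. The cluster held 3 summits in 2 regions, and IRF7, ISG15 and IFIH1 held 4 summits in 2 regions. In each group 1 region came from at least 2 libraries. Without replicate 3 the cluster held 1 region, that of IFNAR1 in replicate 1, and without replicate 2 the other 3 genes held 1, that inside PHRF1. In the cluster, 2 of the 2 regions lay inside a receptor gene, within 164 bp of its end. Around IRF7, ISG15 and IFIH1, 0 of the 2 regions did, and the genes that held them were PHRF1 and PLEKHN1. The summits of the cluster scored 3.60 and 4.87 at IFNAR1 and 7.84 at IFNAR2, against 6.32, 10.4 and 7.44 in the IRF7 window and 4.82 in that of ISG15. Scores overlapped between the groups. With 3 genes on each side, chosen with results of these data known, the difference in position was not tested.

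**Figure D3:**
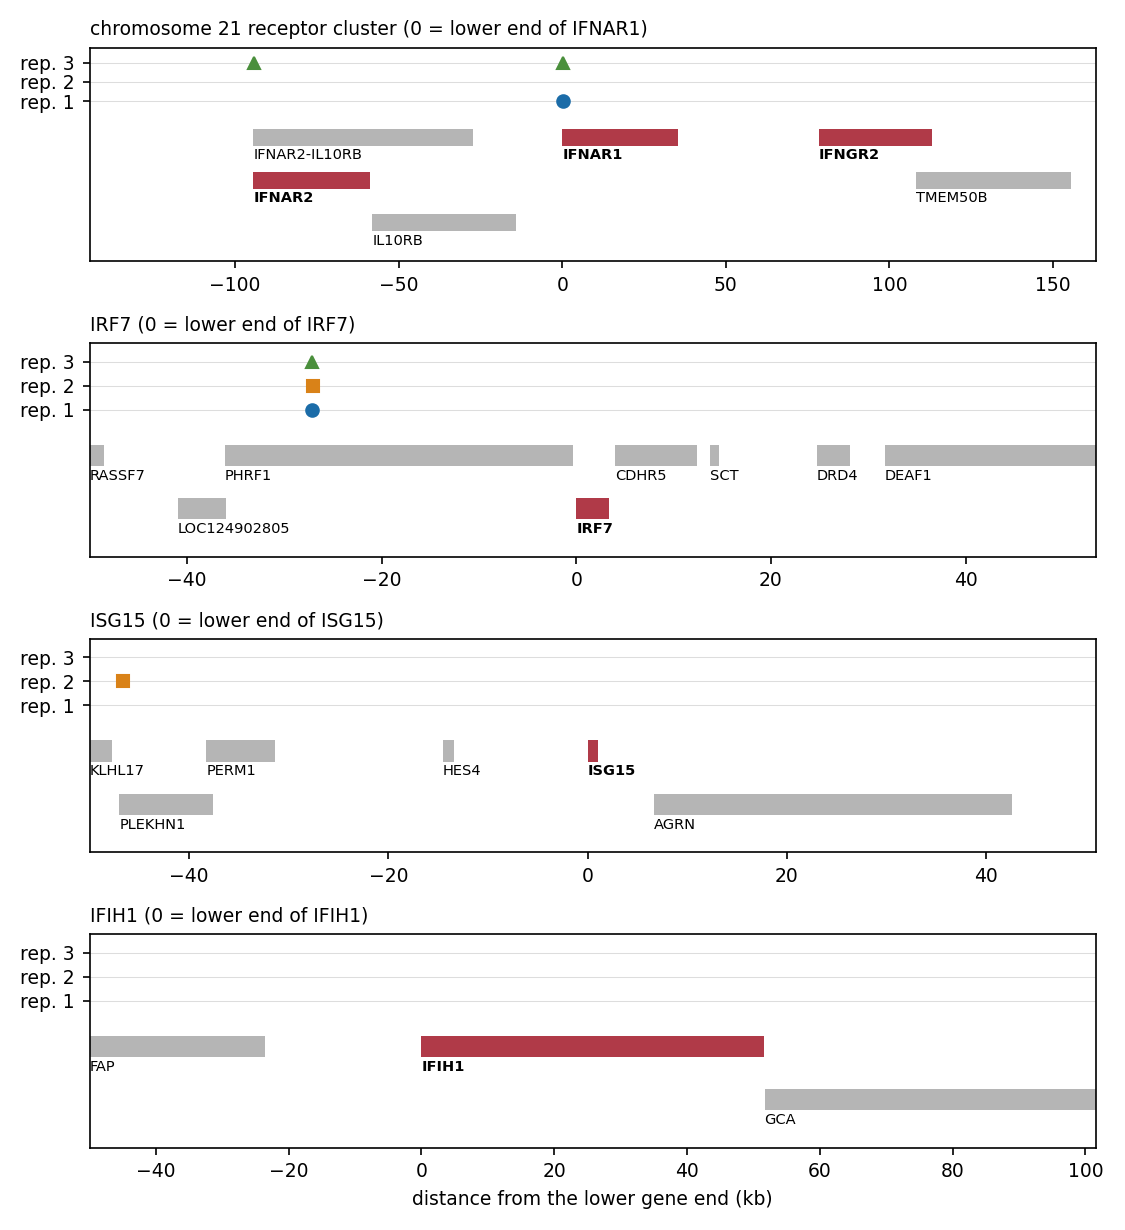
Coding genes (bars, the described genes in red) and summits of each library (symbols) in the window of the chromosome 21 receptor cluster and in those of IRF7, ISG15 and IFIH1, by distance in kb from the lower end of the named gene. The summits of the cluster stand at the lower ends of IFNAR2 and IFNAR1, those of the IRF7 and ISG15 windows stand inside PHRF1 and PLEKHN1, and the IFIH1 window is empty.

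The share of genes reached grew with distance in steps. Within 0.2 kb of an end, 2 of the 9 genes had at least 1 summit, and 7.80% of all coding genes had. From 1 kb to 20 kb the count stayed at 4 of 9, while the share of all coding genes grew from 15.1% to 24.3%. At 100 kb it was 7 of 9, against 46.4%, and at 1000 kb 9 of 9, against 91.2%. A region of at least 2 libraries lay inside or within 100 kb of 4 of the 9 genes, and of 9.47% of all coding genes. Of these 4, IFNAR1, IFNAR2 and IFNGR2 share the 1 region at IFNAR1.

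**Figure D4:**
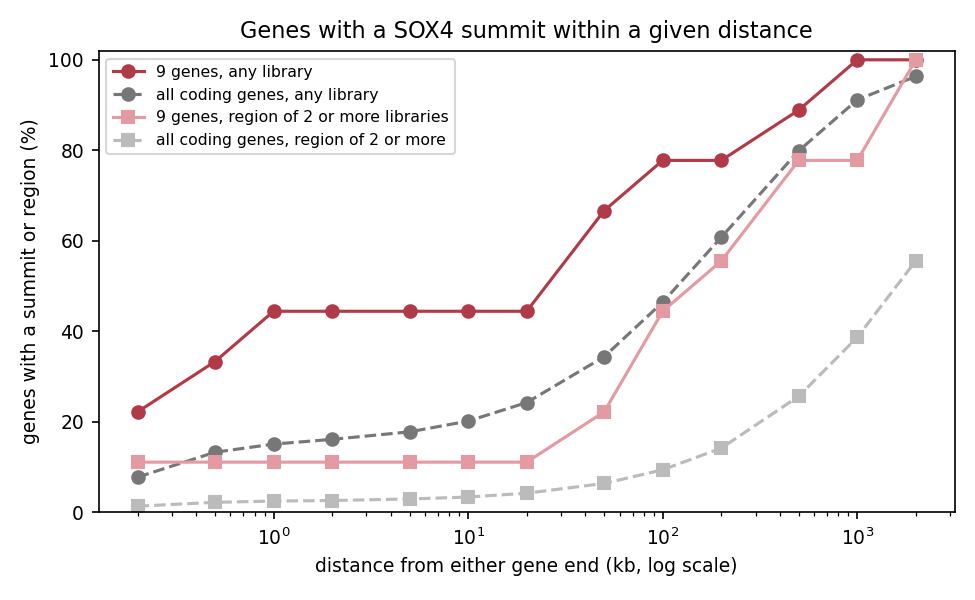
Share of genes in percent with a summit of any library, or with a region of at least 2 libraries, within a given distance of either end (kb, log scale), for the 9 genes (solid lines) and all coding genes (dashed lines). The line of the 9 genes for any library is flat between 1 and 20 kb, at 4 genes, and reaches all 9 at 1000 kb.

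Other genes of these pathways were read in 8 lists, with 112 genes in all, each found in the gene table. Summits of any library lay within 5 kb of an end of 15 of the 112, and of 17.8% of all coding genes. A region of at least 2 libraries was that near to 1 of them, NFKBIA, which encodes the inhibitor that holds NF-kappaB in the cytoplasm, and to 2.97% of all coding genes. Its summits in replicates 1 and 3 scored 6.39 and 5.74 and lay 760 and 719 bp downstream of its start. Downstream of the receptors, JAK-STAT genes had a summit within 5 kb for 5 of 12 members. JAK2, a kinase bound to the interferon gamma receptor, had a replicate 3 summit at 4984946, 140 bp upstream of a listed start, with a score of 9.64. Replicate 2 had a summit at 4985288, 16 bp downstream of a different listed start, with a score of 3.69. These 2 summits were more than 200 bp apart and were not shared. IRF9, a DNA-binding subunit of the complex that acts downstream of the type I receptor, had a replicate 3 summit 141 bp downstream of its start with a score of 3.91. The inhibitors PIAS1, PTPN2 and PTPN6 had replicate 3 summits 289, 231 and 2544 bp from an end, with scores of 6.56, 6.58 and 5.55.

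The remaining lists had fewer. Interferon regulatory factors had 2 of 8, IRF9 and IRF1. IRF1 had a replicate 3 summit 280 bp downstream of its start with a score of 3.92. Sensors and adaptors had 3 of 19. These were TRIM25, a ubiquitin ligase that activates RIG-I, with a replicate 3 summit 73 bp from an end (score 5.44), TBK1, the kinase of IRF3 and IRF7, with a replicate 3 summit at 300 bp (4.94), and RIGI itself, with a replicate 1 summit at 134 bp (2.54). The RIGI summit was near the lowest of its list, with 0.0731% scored lower. For conjugation of ISG15 it was 1 of 6, the ligase gene HERC5, with a replicate 1 summit at 288 bp (3.29). NF-kappaB subunits and regulators had 3 of 13, NFKBIA, CHUK and NFKBIZ. CHUK, which encodes a kinase of the inhibitors of NF-kappaB, had 2 replicate 3 summits 379 and 801 bp from an end (5.33 and 6.15). These lay 43656 and 44078 bp downstream of its nearest listed start. NFKBIZ had a replicate 3 summit 2389 bp from an end (3.73), which was 13897 bp downstream of its nearest listed start.

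Interferon-stimulated genes, the end of the pathway, had 0 of 27 within 5 kb and 3 of 27 inside or within 50 kb, where 35.0% of all coding genes had a summit. These 3 genes shared 2 regions. Class II cytokine receptor chains other than the members had 0 of 8 within 5 kb. Interferon ligands had 2 of 21 within 5 kb, IFNK and IFNA21. IFNK had a replicate 2 summit 3222 bp from an end (4.64), which was 5430 bp downstream of its listed start. IFNA21 had a replicate 3 summit 3286 bp upstream of its start (6.66). Inside or within 50 kb the ligands had 13 of 21, beside the same 35.0%, but these neighbours on chromosome 9 shared 4 regions. Over all 8 lists, 41 of the 112 genes (36.6%) had a summit inside or within 50 kb, beside 35.0% of all coding genes. These lists were drawn up with results of these data known, and no list was tested.

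**Figure D5:**
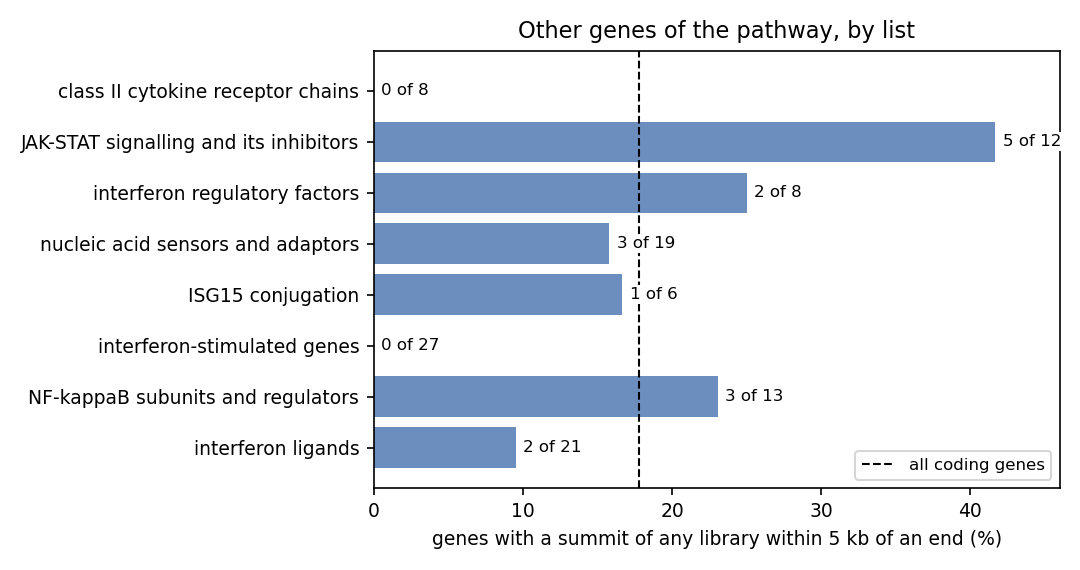
Share of genes in percent with a summit of any library within 5 kb of either end, for 8 lists of other pathway genes, with the counts beside the bars and a dashed line at the 17.8% of all coding genes. JAK-STAT signalling has 5 of 12 genes, and the interferon-stimulated genes and class II cytokine receptor chains have none.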

How the data were processed

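The 3 deposited lists hold 1 bp summits with a score in the fifth column. The authors' score is on the −log10 scale, from a p-value or a q-value, and was made with MACS2 after BWA and SAMtools, per the submitters' processing notes; versions, and which of p or q it is, were not given in the sources used here. Scores were used to describe and rank summits within a list. Depth and enrichment over a control were not analysed here. The notes name hg19, but 41 of the 54 contig names carry KI270 identifiers of GRCh38, so positions (1-based) were read on GRCh38.

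Distances to gene ends used the RefSeq gene table of GRCh38.p14, and starts, strands and sequences came from its promoter table, which matched 7 of the 9 genes (IFNAR2 and IRF7 were not matched). Exons and introns were not told apart. A summit was shared when another library had 1 within 200 bp; regions are placed by their midpoint. Motifs were searched on both strands. Python 3.11.15 with pandas 2.3.3, numpy 2.4.6 and scipy 1.17.1 was used, and the counting steps were tested on simulated data. The genes, lists and alternatives were chosen with earlier results of these data known. Named genes are the 9 members, genes that hold or start nearest to their summits, and from each list at most 6 genes with a summit within 5 kb; 1 gene of the JAK-STAT list is not reported here and is left out of the list counts.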

Additional observations from a re-analysis of the deposited data

How the results depend on the processing

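All positions come from 1 group of 3 libraries without a control, so the alternatives below change counts only. No paired analysis was possible because the libraries form 1 group.

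At 5 kb or 10 kb in place of 50 kb, the regions of IRF7, ISG15 and IFIH1 fell to 0 and the summits to 6. A summit of any library then reached 4 of the 9 genes, and 20.4% and 22.3% of all coding genes. The genes with a region of at least 2 libraries fell to 1, where 3.47% and 3.82% of coding genes had one. At 100 kb the genes with such a region numbered 4, where 9.47% of coding genes had one; the additional genes are IFNAR2 and IFNGR2, which reach the IFNAR1 region at 58.8 and 78.4 kb. Joining at 500 bp gave 2 genes with a region of at least 2 libraries within 1 kb, IFNAR1 and NFKB1, where 3.09% of coding genes had one. With summits at or above the median score of their list, 2 genes, IFNAR2 and IRF7, had a summit within 50 kb, where 19.8% of coding genes did. For 1 of them this was a region of at least 2 libraries, where 3.28% of coding genes had one. Within 1 kb, 1 gene had a summit and 0 a region of at least 2 libraries, where 7.77% and 1.02% of coding genes did. Then 4 summits remained, in 1 region of the receptor cluster and 1 of IRF7, ISG15 and IFIH1. With lists of equal length, 5 genes had a summit within 50 kb, where 18.2% of coding genes did. Within 1 kb of an end, 3 genes then had a summit, where 7.10% of coding genes did. A region of at least 2 libraries then lay within 50 kb of 1 gene (4.30% of coding genes) and within 1 kb of 0 (1.53%).

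Leaving out each library in turn gave 1 to 2 genes with a region of at least 2 libraries within 50 kb (2.91 to 4.04% of coding genes). Within 1 kb it gave 0 to 1 genes with such a region (0.873 to 1.40%) and 2 to 4 genes with a summit (4.77 to 14.4%). There were 5 to 8 summits, 1 to 2 regions in the cluster and 1 to 2 around IRF7, ISG15 and IFIH1. The share of member summits with another library within 200 bp was 28.6 to 50.0%, lowest without replicate 1, against 18.2 to 31.3% of all summits. It was 75% of 4 summits at or above the median score, against 32.5% of all such summits. Those shared were the 3 summits of 1 region in the IRF7 window, so they are not independent of each other. With joining at 500 bp the share was 70.0% of 10 summits, against 36.3% of all summits. With 1 library left out, the share of coding genes with a summit of any library within 50 kb was 13.6 to 33.4%, lowest without replicate 3. The other values in these settings, with joining at 100 bp, distance to the transcription start and the coding genes of the members' own chromosomes, stayed within 1.5 times the value reported. Unequal list lengths limit these counts, and depth is unknown.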
